A study of Mus musculus with 9 samples.

Results

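The genes described here were 7 genes of sterol metabolism in isolated mouse retinal ganglion cells (RGCs): Hmgcs1, Idi1, Sqle, Cyp51, Dhcr7, Ebpl and Insig1. They were chosen by name, with their levels in these same libraries already known, out of 23997 gene symbols listed in each library, and all 7 passed the filter on low values. The measured FPKM in the 3 groups are therefore the values that selected them, so their differences between groups are given as a description. How many of them passed the threshold used for all genes is stated once, beside the share of all genes that did, and is no test of the members. RGCs are the output neurons of the retina, and their loss under raised intraocular pressure (IOP) is the hallmark of glaucoma. The question of the study was how RGC gene expression differs with the level of IOP elevation.

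RGCs came from C57BL/6J mice, labelled as 8 weeks old, whose eyes had received an injection into the anterior chamber. Control eyes received saline. Mild IOP and Moderate IOP eyes both received microbeads, and they were divided by the IOP increase over 2 weeks, which was between 1 and 4 mmHg for Mild IOP and 4 mmHg or more for Moderate IOP. RGCs were isolated by immunopanning, in which antibodies on a dish first remove other cells and then hold RGCs by the surface protein Thy1. RNA was pooled within each group, from 12 Control, 12 Mild IOP and 6 Moderate IOP retinas, and every pool was divided over 3 libraries as technical replicates. A difference between groups is thus a difference between 3 pools, and standard errors and p-values cover only the technical spread between libraries of a pool. In such bulk libraries, fewer cells of a type and less RNA per cell cannot be told apart.

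Cholesterol is built in animal cells from acetyl-CoA through mevalonate, isoprenoid units, squalene and lanosterol. Most enzymes of the route are controlled together: when sterols in the endoplasmic reticulum run low, the protein Scap carries the transcription factor SREBP-2 to the Golgi for cleavage, and the freed factor binds sterol regulatory elements beside its target genes, usually together with factors on nearby CCAAT boxes. Insig proteins hold Scap back when sterols are plentiful. In the retina, neurons also receive cholesterol from Müller glia and the circulation, carried on lipoproteins that contain apolipoprotein E.

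In the mouse build mm10, the deposited loci were chr13:119690351-119708260 for Hmgcs1, chr13:8885606-8892396 for Idi1 and chr15:59315092-59331193 for Sqle, all on the plus strand. Cyp51 lay at chr5:4080674-4104697 on the minus strand and Dhcr7 at chr7:143823167-143848410 on the plus strand. Ebpl lay at chr14:61339763-61360445 on the minus strand and Insig1 at chr5:28071412-28078662 on the plus strand. The library kit does not mark the strand of a read, so reads of overlapping genes on opposite strands cannot be told apart. By the GENCODE annotation, exons of Hmgcs1 share 557 bases with the antisense gene Gm48342, those of Idi1 share 323 bases with Gm48574 and those of Cyp51 share 166 bases with Akap9. GENCODE also continues the last exon of Ebpl to position 61331742, beyond the end of the deposited locus, so fragments from that extension are outside the Ebpl values.

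Ebpl is a relative of a pathway enzyme in name and sequence. The promoters below are shown as a description only, and their part in any difference between groups was not tested. Each is the 250 bases before the gene start in RefSeq (build GRCm38.p6), read 5′ to 3′ on the gene's own strand. The windows are chr14:61360446-61360695 for Ebpl, chr13:119690101-119690350 for Hmgcs1, chr13:8885356-8885605 for Idi1 and chr5:28071162-28071411 for Insig1. Capitals mark matches, on either strand, to TCACNCCAC, a form of the sterol regulatory element, and to CCAAT, which reads ATTGG when it lies on the other strand.
Ebpl: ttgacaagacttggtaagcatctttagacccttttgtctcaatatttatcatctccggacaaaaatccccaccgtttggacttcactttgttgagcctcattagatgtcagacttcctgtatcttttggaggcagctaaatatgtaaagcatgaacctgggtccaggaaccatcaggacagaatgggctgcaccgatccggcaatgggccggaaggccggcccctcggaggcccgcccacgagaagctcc
Hmgcs1: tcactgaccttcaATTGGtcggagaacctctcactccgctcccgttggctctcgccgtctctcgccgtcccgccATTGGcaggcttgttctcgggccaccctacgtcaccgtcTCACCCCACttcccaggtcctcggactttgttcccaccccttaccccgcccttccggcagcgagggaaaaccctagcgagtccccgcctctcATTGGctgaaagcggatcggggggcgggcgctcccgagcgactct
Idi1: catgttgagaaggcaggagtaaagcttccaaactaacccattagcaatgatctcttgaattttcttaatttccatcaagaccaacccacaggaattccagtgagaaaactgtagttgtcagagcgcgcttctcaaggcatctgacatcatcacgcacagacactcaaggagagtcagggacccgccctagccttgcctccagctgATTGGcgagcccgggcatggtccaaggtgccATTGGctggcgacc
Insig1: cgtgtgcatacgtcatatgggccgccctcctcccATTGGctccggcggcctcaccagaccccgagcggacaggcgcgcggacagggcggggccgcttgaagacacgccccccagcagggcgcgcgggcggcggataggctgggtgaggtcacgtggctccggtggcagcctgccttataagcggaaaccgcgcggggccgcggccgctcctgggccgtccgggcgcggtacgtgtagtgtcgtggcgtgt
The Hmgcs1 window held TCACCCCAC starting 137 bases before the gene start, and ATTGG starting 237, 176 and 45 bases before it. The Idi1 window held 2 CCAAT boxes and the Insig1 window 1. The Ebpl window held neither motif, which says only that these letters are not in these 250 bases. No matches overlapped in these windows.

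Among the 32851 promoters of the RefSeq table, 33.8% held CCAAT and 1.05% held TCACNCCAC. A promoter was listed for 5 of the 6 members other than Ebpl, and all 5 held CCAAT in at least 1 listed window (Dhcr7 in 1 of 3 windows), while Hmgcs1 alone of them held TCACNCCAC. Of the other enzymes of the route, 11 of the 12 with a listed promoter held CCAAT and 0 held TCACNCCAC. A match of letters is a description and not a binding site.

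The deposited unit, FPKM, counts fragments relative to transcript length and to the mapped fragments of the library, so levels of different genes can be compared per length. Each library was divided by a scaling factor, and the values below are these scaled FPKM. The depth derived from the confidence intervals of the FPKM was between 4680000 and 8400000 fragments per library, and between 14182 and 14914 genes per library were above 0. A single gene held 20.5% of the summed FPKM in replicate 2 of Mild IOP and 9.14% in replicate 3 of Moderate IOP, against 1.87% to 3.59% in the other libraries. All 10 RGC markers were detected, and their summed level ran from 1690 to 1812 in Control, from 1248 to 1542 in Mild IOP and from 2552 to 2755 in Moderate IOP. The rod markers summed to 450.4 to 532 in Control, 294 to 329.6 in Mild IOP and 288 to 339 in Moderate IOP. The amacrine markers summed to 766 to 814, 842 to 900 and 546 to 597 in the same order, and the Müller glia markers to 591 to 616, 604 to 656 and 594 to 638.5. A list of crystallin and other genes that are abundant in the lens, some of which RGCs can also express, summed to 256 to 336 in Control but to at most 5.95 in the other libraries. Every comparison with Control thus also sets libraries with high levels of these genes against libraries with low levels, and the source of this RNA and its part in the results were not tested. Markers of bipolar cells, astrocytes, microglia, endothelium, oligodendrocytes and pigment epithelium summed to at most 33.4 in any library, none of them was called in any comparison, and 2 endothelial, 1 oligodendrocyte and 1 pigment epithelium marker were at 0 in every library.

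Hmgcs1 encodes the cytosolic synthase that makes HMG-CoA, the precursor of mevalonate. Its scaled FPKM was 137, 151 and 159.6 in Control, 158, 169 and 150.3 in Mild IOP, and 121, 115 and 132 in the libraries of Moderate IOP. All 3 Moderate IOP libraries lay below every Control and every Mild IOP library, while Control and Mild IOP overlapped. The group values were 149 ± 11.1, 159 ± 9.21 and 123 ± 8.36 (mean ± SD, n = 3, for Control, Mild IOP and Moderate IOP in this order, as for all group values). On the log2(scaled FPKM + 1) scale, which is used for every difference below, Moderate IOP was lower than Control by a difference of −0.28 and than Mild IOP by −0.37, with a limma standard error of 0.11. With a mean above that of 94.4% of the 13043 tested genes, Hmgcs1 was the most abundant of the 7. Of all tested genes, 9.48% had every Moderate IOP library below every Control library, and 13.0% had them below every Mild IOP library.

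Idi1 isomerises isopentenyl diphosphate, the building unit of all later intermediates. Its scaled FPKM was 59.8, 49.5 and 75.4 in Control, 50.8, 58.8 and 54.3 in Mild IOP, and 47.0, 52.0 and 57.9 with Moderate IOP. The Control libraries alone spanned the values of the other groups almost entirely, and no pair of groups stood apart. The differences from Control were −0.15 for Mild IOP and −0.22 for Moderate IOP, with a standard error of 0.16. They depended on single Control libraries, running for Moderate IOP from −0.36 without Control replicate 2 to −0.06 without Control replicate 3, and for Mild IOP from −0.29 to 0.0021 without the same libraries.

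Sqle is squalene epoxidase, the first oxygen-requiring step. Its scaled FPKM was 80.1, 68.3 and 84.2 in Control, 68.6, 86.2 and 75.7 in Mild IOP, and 85.7, 61.6 and 94.9 with Moderate IOP. Moderate IOP held both the lowest and the highest library, and the groups overlapped throughout. The group values were 77.6 ± 8.25, 76.8 ± 8.88 and 80.7 ± 17.2, and the differences from Control were −0.014 and 0.039 with a standard error of 0.17. The sign of the second changed from 0.22 without Moderate IOP replicate 2 to −0.09 without Moderate IOP replicate 3.

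Cyp51 is the lanosterol demethylase, a cytochrome P450 enzyme. It measured 36.5, 38.3 and 36.6 in Control, 30.7, 34.5 and 38.1 in Mild IOP, and 35.6, 34.0 and 34.3 with Moderate IOP. The Moderate IOP libraries lay just below the Control libraries, and the Mild IOP libraries spanned nearly all of both. The coefficient of variation was 2.73% in Control and 2.47% in Moderate IOP, against 10.8% in Mild IOP, and the differences between groups ran from −0.11 to 0.01 with a standard error of 0.13.

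Dhcr7 reduces 7-dehydrocholesterol to cholesterol, at the end of the route. Control libraries measured 16.7, 13.6 and 16.6, Mild IOP libraries 16.1, 16.6 and 12.5, and Moderate IOP libraries 14.6, 9.53 and 8.09. Replicate 1 of Moderate IOP lay within the Control range and the other 2 lay below every Control and Mild IOP library, so the groups overlapped. The means were 15.6 ± 1.76, 15.1 ± 2.26 and 10.7 ± 3.41, and Moderate IOP differed from Control by −0.53 and from Mild IOP by −0.48 with a standard error of 0.22. The difference from Mild IOP was −0.70 without Moderate IOP replicate 1 and −0.32 without Moderate IOP replicate 3, and that from Control was −0.76 and −0.37.

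Ebpl, the emopamil binding protein-like gene, encodes a relative of the sterol isomerase Ebp, but isomerase activity has not been established for it. Its scaled FPKM was 12.3, 8.21 and 10.9 in Control, 6.60, 6.60 and 5.02 in Mild IOP, and 22.5, 17.8 and 14.99 with Moderate IOP. All Mild IOP libraries lay below all Control libraries, and all Moderate IOP libraries lay above both. No other member had 3 groups without overlap, and no other member was higher in all Moderate IOP libraries than in Control. For a single pair of groups, separation was common over all tested genes, while the share of genes with 3 groups apart was not computed. Mild IOP lay wholly below Control in 9.13% of them, and Moderate IOP wholly above Control in 9.95% and above Mild IOP in 14.5%. The group values of Ebpl were 10.5 ± 2.08, 6.07 ± 0.914 and 18.4 ± 3.81. The Mild IOP mean was 0.580 of the Control mean, the Moderate IOP mean was 1.76 times the Control mean, and Moderate IOP was 3.04 times Mild IOP. On the log2 scale the differences were −0.69 for Mild IOP and 0.76 for Moderate IOP against Control, and 1.45 for Moderate IOP against Mild IOP, each with a standard error of 0.22. These values rested on 173, 150.0 and 110.0 derived fragments in the Control libraries, 93.7, 90.9 and 53.9 in Mild IOP, and 212, 308 and 170.3 in Moderate IOP. The deposited 95% intervals of the unscaled FPKM show this precision: replicate 2 of Control, the lowest of its group, had an interval of 7.03 to 9.78, which overlapped that of replicates 1 and 2 of Mild IOP (5.51 to 8.38 and 5.52 to 8.45). Replicate 3 of Moderate IOP, the lowest of its group, had an interval of 12.5 to 17.0, which overlapped those of replicates 1 and 3 of Control (10.6 to 14.4 and 8.89 to 13.1).

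Insig1 is no enzyme but the sterol-sensing brake of the pathway, which retains Scap in the endoplasmic reticulum. It measured 72.0, 90.0 and 84.7 in Control, 84.6, 89.8 and 82.0 in Mild IOP, and 70.4, 67.9 and 78.0 with Moderate IOP. The Moderate IOP libraries lay below all Mild IOP libraries but overlapped Control, whose replicate 1 was low. The group values were 82.2 ± 9.28, 85.5 ± 3.97 and 72.1 ± 5.29, and the differences were −0.18 from Control and −0.24 from Mild IOP with a standard error of 0.12. The difference from Control was −0.27 without Control replicate 1 and −0.12 without Control replicate 2.

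**Figure D1:**
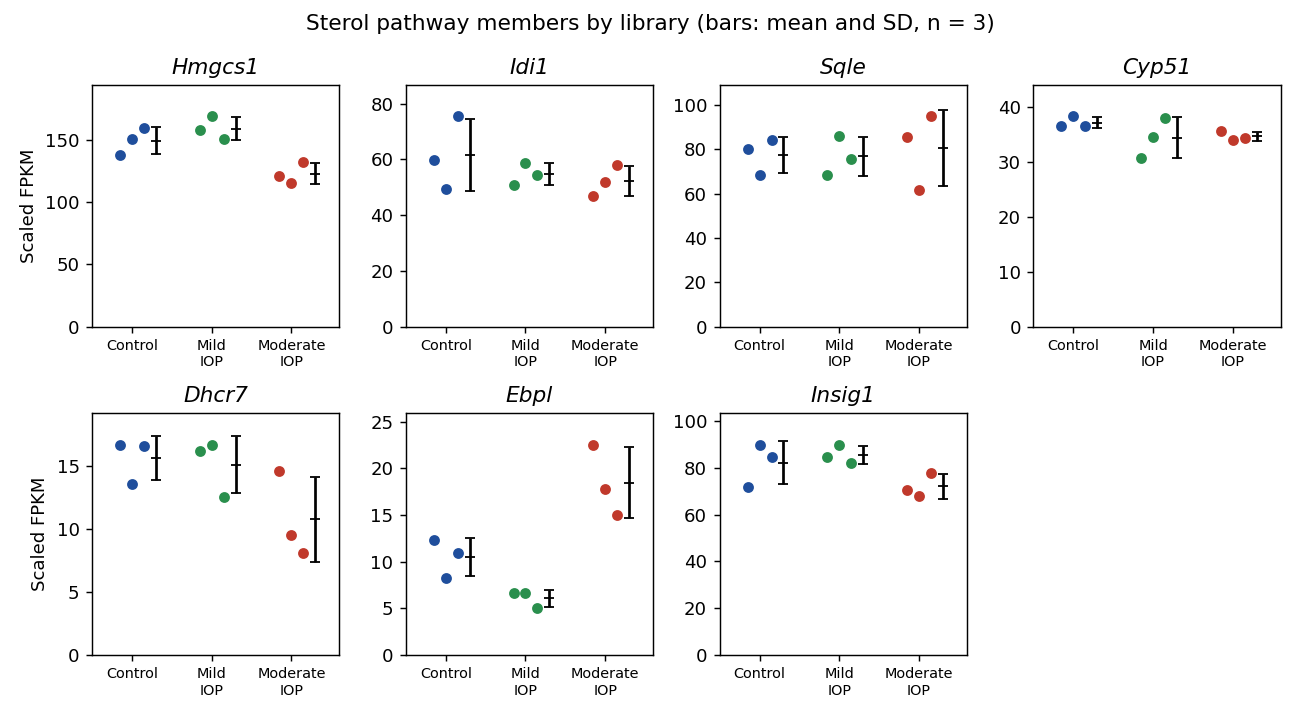
Scaled FPKM (vertical axes, from 0) of the 7 members in the 3 libraries of Control, Mild IOP and Moderate IOP (points), with the mean and SD of each group (bars, n = 3). Ebpl runs from 5.02 to 6.60 in Mild IOP and from 14.99 to 22.5 in Moderate IOP with Control between them, whereas the groups of Idi1, Sqle and Dhcr7 overlap.

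Per length, Control libraries ordered the members as Hmgcs1, Insig1, Sqle, Idi1, Cyp51, Dhcr7 and Ebpl. In that order the libraries of Insig1 and Sqle overlapped, as did those of Sqle and Idi1, and the other neighbours stood apart. Mild IOP libraries kept the order, with overlap between Insig1 and Sqle only. In Moderate IOP, Sqle and Insig1 exchanged places within their overlap, and Ebpl and Dhcr7 exchanged places without overlap. Ebpl was thus the least abundant member in Control and Mild IOP and Dhcr7 in Moderate IOP, and their means over all libraries exceeded those of 57.3% and 61.0% of tested genes.

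A gene was called where limma, fitted over 13043 genes, gave a Benjamini-Hochberg false discovery rate (FDR) below 0.1. In Mild IOP against Control, 0 members passed it in limma, where 0.399% of all tested genes were called in either direction. An unadjusted p below 0.05 in limma was reached by 1 member and by 1324 of all 13043 tested genes. In Moderate IOP against Control, again 0 members passed the FDR threshold in limma, where 0.951% of tested genes were called higher and 0.889% lower. Here 3 members and 1994 of all 13043 tested genes had an unadjusted p below 0.05 in limma. In Moderate IOP against Mild IOP, 2 members passed the threshold, 1 higher and 1 lower, where 7.03% of tested genes were called higher and 3.12% lower. As the members were chosen with these comparisons known, these counts support nothing about the members. The median difference of the 7 was −0.05, −0.18 and −0.06 in the 3 comparisons, beside 0.0062, 0.0040 and −0.016 over all tested genes. Both comparisons with Control use the same 3 Control libraries.

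The RGC markers moved in the same direction as Ebpl between the IOP groups: 6 of 10 were called higher in Moderate IOP than in Mild IOP, and their part in the Ebpl difference was not tested. Per 1000 scaled FPKM of summed RGC markers, Ebpl measured 4.53 to 7.27 in Control, 3.25 to 5.29 in Mild IOP and 5.60 to 8.18 with Moderate IOP. On this ratio Moderate IOP lay above Mild IOP without overlap, and both overlapped Control. The separation is narrow, between 5.29 in replicate 2 of Mild IOP and 5.60 in replicate 3 of Moderate IOP. These 2 values rested on 90.9 and 170.3 derived Ebpl fragments. The largest part of the marker sum was Sncg, with 911 ± 49.6, 641 ± 117 and 1389 ± 34.0, so the ratio depends on Sncg more than on any other marker. The markers not called, Pou4f2, Pou4f3, Isl1 and Slc17a6, overlapped between Moderate IOP and Mild IOP.

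Transcripts also differed by length between groups. The length behind each gene's FPKM was derived from the files, and the median difference between Moderate IOP and Mild IOP was 0.55 for the 1786 genes under 1000 nt, 0.14 from 1000 to under 2000 nt, −0.05 from 2000 to under 3000 nt, −0.16 from 3000 to under 5000 nt and −0.15 at 5000 nt and over. Ebpl, at a derived 2087 nt, lay far above the median of its class. With the trend on length removed from each library, the Ebpl differences were −0.71 for Mild IOP and 0.73 for Moderate IOP against Control and 1.44 for Moderate IOP against Mild IOP. The derived length falls short for abundant genes: its median ratio to the GENCODE length was 1.02 for genes of 1 to 10 FPKM and 0.703 for genes of 100 to 1000 FPKM. Hmgcs1, derived as 2124 nt and annotated as 3464 nt, may thus stand in the wrong length class, which also touches the removal of the trend. For Ebpl, whose deposited locus is shorter than the annotated one, GENCODE gives 10092 nt.

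**Figure D2:**
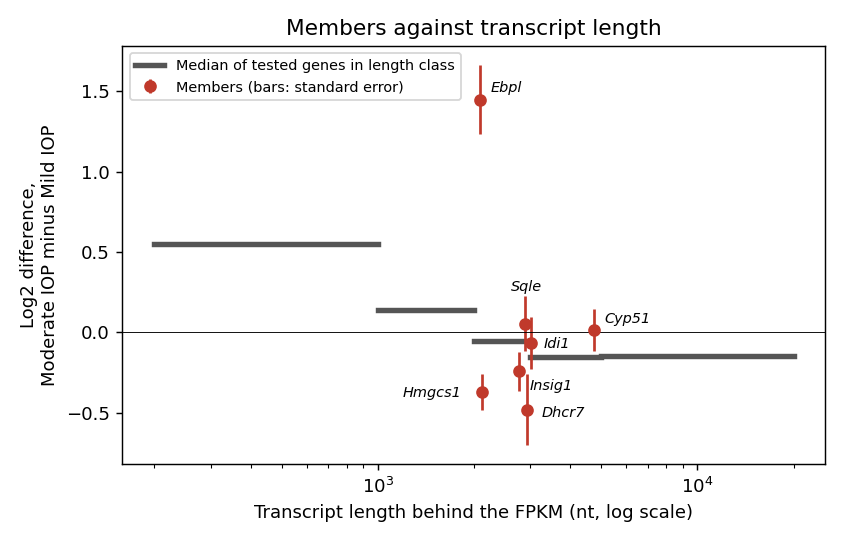
Log2 difference between Moderate IOP and Mild IOP (vertical axis) against derived transcript length in nt (horizontal log axis) for the 7 members (points, bars are limma standard errors), with the median of all tested genes in each length class (lines, whose outer ends at the shortest and longest class are drawn to fixed limits). Ebpl stands at 1.45 where the class median is −0.05.

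The other 16 enzymes of the route were tested as a background to the members, on a list chosen with earlier results of these data known. Limma called 0 of 16 in each of the 3 comparisons, with 0, 3 and 3 below an unadjusted p of 0.05 for Mild IOP against Control, Moderate IOP against Control and Moderate IOP against Mild IOP. Over all 13043 tested genes, limma called 0.399%, 1.84% and 10.2% in that order, and 1324, 1994 and 2840 were below an unadjusted p of 0.05. The median differences of the 16 were −0.14, −0.19 and −0.12 in the same order. Early in the route, the thiolase Acat2 and the mevalonate kinase Mvk differed from Control by −0.24 and −0.41 in Moderate IOP. Pmvk and Mvd, which complete the conversion to isopentenyl diphosphate, differed by 0.20 and −0.20.

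Fdps, which joins isoprenoid units, was the most abundant of these enzymes, with 413 ± 53.9, 339.6 ± 55.9 and 438 ± 72.3. It differed from Control by −0.29 under Mild IOP and by 0.08 under Moderate IOP. Fdft1, the squalene synthase that follows, differed by −0.26 and −0.06, and Lss, which closes the sterol rings, by −0.18 and −0.43. After Cyp51, the reductases Tm7sf2 and Lbr differed from Control by 0.05 and −0.25 in Moderate IOP, and the demethylating enzymes Msmo1, Nsdhl and Hsd17b7 by −0.0062, −0.26 and −0.42. Sc5d, which acts beside Dhcr7, differed by −0.00065. None of these differences passed the FDR of 0.1 in limma.

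Ebp, the sterol isomerase to which Ebpl is related, was, of these 16 enzymes, the one with the largest positive difference from Control in Moderate IOP. Its group values were 25.5 ± 3.81, 26.6 ± 4.87 and 39.1 ± 6.26. All Moderate IOP libraries lay above all others, while Control and Mild IOP overlapped. The differences were 0.60 ± 0.19 (SE) from Control and 0.54 ± 0.19 from Mild IOP, with an FDR of 0.17 and 0.12 (limma, Benjamini-Hochberg), so neither was called. The ratio of Ebpl to Ebp was 0.310 to 0.515 in Control, 0.185 to 0.307 in Mild IOP and 0.334 to 0.563 in Moderate IOP, so that it was lower in every Mild IOP library than in any library of the other groups. Against Control this separation is a near tie, between 0.307 in replicate 2 of Mild IOP and 0.310 in replicate 2 of Control, whose Ebpl intervals overlapped.

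**Figure D3:**
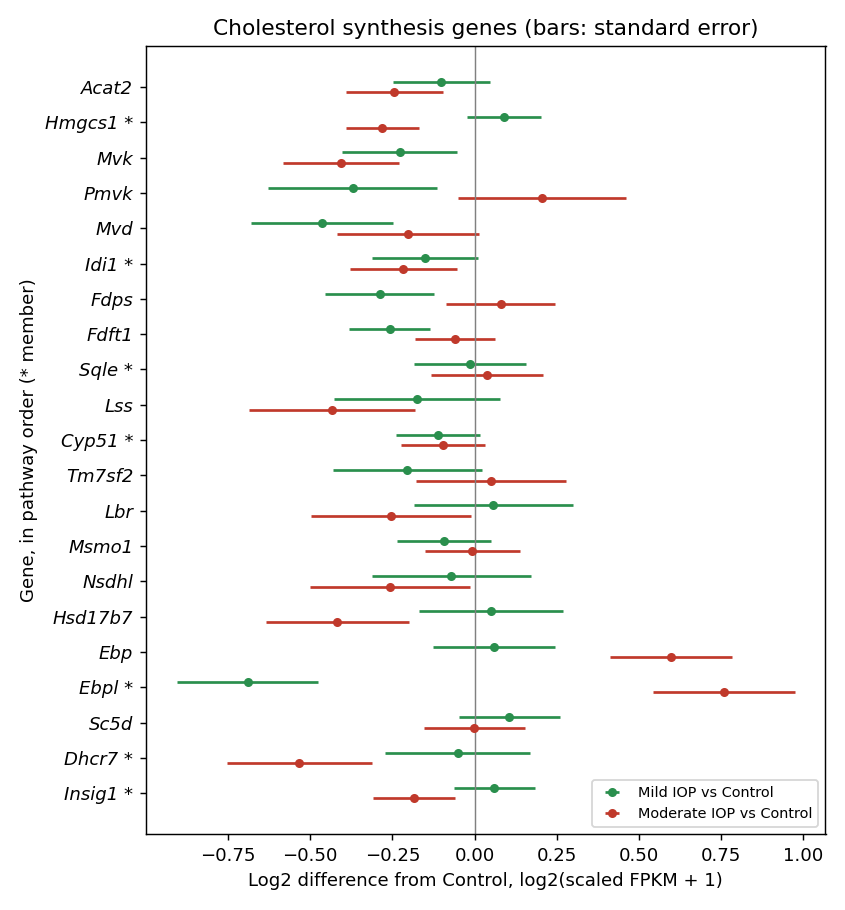
Log2 difference from Control (horizontal axis) of 21 cholesterol synthesis genes from the start of the route to its end, in Mild IOP (green) and Moderate IOP (red), with limma standard errors as bars. Ebpl is placed beside its relative Ebp and Insig1 last, and Ebpl stands at −0.69 and 0.76 with Ebp at 0.06 and 0.60.

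Of all 67 other genes listed for sterol metabolism, 63 passed the filter on low values. The lists were chosen with earlier results of these data known, so counts over them are a description. Limma called 0 of 63 in Mild IOP against Control, where 1 of them and 1324 of all 13043 tested genes had an unadjusted p below 0.05. It called 3 in Moderate IOP against Control (1 higher, 2 lower) and 5 in Moderate IOP against Mild IOP (1 higher, 4 lower). That was 4.76% and 7.94% of the listed genes, beside 1.84% and 10.2% of all tested genes in the same comparisons. The median difference of the 63 was 0.05, −0.15 and −0.19, beside 0.0062, 0.0040 and −0.016 over all tested genes. The calls in Moderate IOP against Mild IOP included 2 of 12 genes of the SREBP machinery and sterol sensing, 1 of 8 of efflux, esters and oxysterols, and 1 of 11 lipogenic targets of SREBP-1.

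Among the genes that control the members, the differences between Moderate IOP and Mild IOP were negative in 11 of 12, with a median of −0.37, beside 6713 of 13043 over all tested genes. With the trend on transcript length removed they were negative in 9 of 12, with a median of −0.29, beside 6530 of 13043. As this list was chosen with earlier results of these data known, both counts are a description. Of these 12 genes, 2 were called. Insig2, the second Insig protein, measured 50.5, 51.2 and 56.8 in Control, 61.4, 55.0 and 62.0 in Mild IOP, and 40.7, 42.1 and 47.6 with Moderate IOP. Its Moderate IOP libraries lay below all others. The difference from Mild IOP was −0.44 ± 0.12 (SE; FDR = 0.061, limma with Benjamini-Hochberg adjustment). In limma, leaving out replicate 1, 2 or 3 of Mild IOP, or replicate 1 or 2 of Moderate IOP, raised this FDR to 0.19, 0.11, 0.14, 0.15 and 0.14. The ratio of Insig1 to Insig2 ran from 1.43 to 1.76 in Control, from 1.32 to 1.63 in Mild IOP and from 1.61 to 1.73 in Moderate IOP, with overlap throughout.

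Erlin2 encodes an endoplasmic reticulum protein that takes part in the degradation of other proteins of that membrane. It measured 34.0, 26.5 and 30.8 in Control, 42.0, 42.1 and 40.3 in Mild IOP, and 22.3, 25.1 and 25.4 with Moderate IOP. The 3 groups did not overlap, and their order was opposite to that of Ebpl. How many of all tested genes had 3 groups apart was not computed. The difference between Moderate IOP and Mild IOP was −0.75 ± 0.14 (SE; FDR = 0.013, limma with Benjamini-Hochberg adjustment) and stayed below 0.1 without any single library. The transcription factor genes Srebf1 and Srebf2 were not called, with differences from Control in Moderate IOP of −0.39 ± 0.19 and −0.17 ± 0.14, and Scap differed from Mild IOP by −0.48 ± 0.19 (FDR = 0.18, limma with Benjamini-Hochberg adjustment).

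Osbp, an oxysterol-binding transfer protein of the uptake and transport list, was not called, with a difference between Moderate IOP and Mild IOP of −0.59 ± 0.22 (FDR = 0.14, limma with Benjamini-Hochberg adjustment).

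Apoe, whose product carries cholesterol between glia and neurons, rose in Moderate IOP. It measured 82.0, 76.1 and 76.7 in Control, 79.2, 72.0 and 92.4 in Mild IOP, and 119, 150.0 and 111 with Moderate IOP, where every library lay above all others. The difference was 0.68 ± 0.14 from Control (FDR = 0.060) and 0.63 ± 0.14 from Mild IOP (FDR = 0.029; SE, limma with Benjamini-Hochberg adjustment). In limma, the FDR against Control was 0.15, 0.16 and 0.104 without Control replicates 1, 2 and 3, 0.11 without Mild IOP replicate 1, and 0.11 and 0.17 without Moderate IOP replicates 1 and 2, and that against Mild IOP was 0.11 without Mild IOP replicate 2. Apoe is also one of 7 Müller glia markers, of which Glul was also called higher in Moderate IOP than in Mild IOP and Rlbp1 higher than in Control, while the ranges of the summed list overlapped between groups. Most of that sum is Dkk3, which had 485 ± 16.1, 509 ± 41.2 and 423 ± 28.8. Without Dkk3 and Apoe, a choice made after the values were seen, the other 5 markers summed to 36.5 to 42.1 in Control, 33.2 to 43.5 in Mild IOP and 49.7 to 82.1 with Moderate IOP. Their sum, which is mostly Glul and Rlbp1, was thus higher in every Moderate IOP library, but not each marker. Slc1a3 was lower in every Moderate IOP library than in any Mild IOP library (means 2.11 and 2.94), and Aqp4 overlapped throughout. In Moderate IOP, Rlbp1 overlapped Mild IOP, and Sox9 lay above Mild IOP but overlapped Control. The part of Müller glia in the Apoe difference was not tested. Soat1, which esterifies cholesterol, was scarce, with 0.909 ± 0.424, 0.694 ± 0.325 and 2.22 ± 1.25, and was not called (0.86 ± 0.35 between Moderate IOP and Mild IOP).

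Fads2, a fatty acid desaturase and SREBP-1 target, had the smallest FDR of the listed genes. It measured 52.7, 56.8 and 43.4 in Control, 55.2, 62.7 and 60.8 in Mild IOP, and 28.8, 23.1 and 30.5 with Moderate IOP, below all other libraries. The difference was −0.87 ± 0.15 from Control (FDR = 0.031) and −1.10 ± 0.15 from Mild IOP (FDR = 0.0058; SE, limma with Benjamini-Hochberg adjustment). Against Control the FDR in limma was 0.12 without Control replicate 1 and 0.11 without Control replicate 2, and against Mild IOP it stayed below 0.1 without any single library. Scd2, a stearoyl-CoA desaturase, differed from Mild IOP by −0.38 ± 0.13 (FDR = 0.11, limma with Benjamini-Hochberg adjustment).

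**Figure D4:**
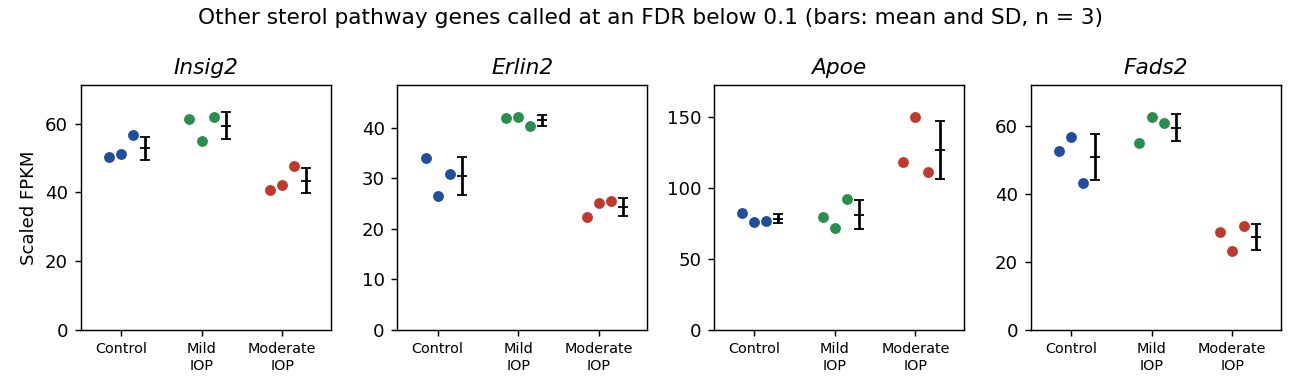
Scaled FPKM (vertical axes, from 0) of 4 other sterol genes called at an FDR below 0.1, in the 3 libraries of each group (points) with mean and SD (bars, n = 3). Insig2, Erlin2 and Fads2 are lower and Apoe is higher in all Moderate IOP libraries than in all Mild IOP libraries.

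The genes nearest to Ebpl were sought by the root mean square difference of profiles over the 9 libraries, after each gene's mean log2 level was subtracted, among 13042 other tested genes. They were Serping1, the complement C1 inhibitor (0.19), the cytokine gene Il18 (0.22), the actin-binding thymosin gene Tmsb10 (0.23), BC048546 (0.23) and the histone gene Hist1h2ac (0.23). Tmsb10, the most abundant, had 216 ± 15.01, 152 ± 21.2 and 357 ± 41.9 in the 3 groups. Serping1 was at 3.49 ± 0.815, 2.36 ± 0.655 and 8.57 ± 1.28, a Moderate IOP mean 3.63 times that of Mild IOP. Hist1h2ac, Il18 and BC048546 had Moderate IOP means 3.49, 3.06 and 3.16 times those of Mild IOP. All these genes were picked for their nearness to Ebpl in the same libraries, so their shared direction and these ratios follow from the choice. None of these nearest genes is a gene of sterol synthesis, but so few genes out of 13042 cannot show whether sterol genes lie near or far. Ebp stood at place 1089 in this order, Sqle, the nearest of the other members, at place 3823 and Dhcr7, the farthest, at place 9641. The distance depends on how much a gene varied as well as on its pattern. The places of the members also rest on the same values that selected them. They are thus a description, and shared control with Ebpl was not tested.

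**Figure D5:**
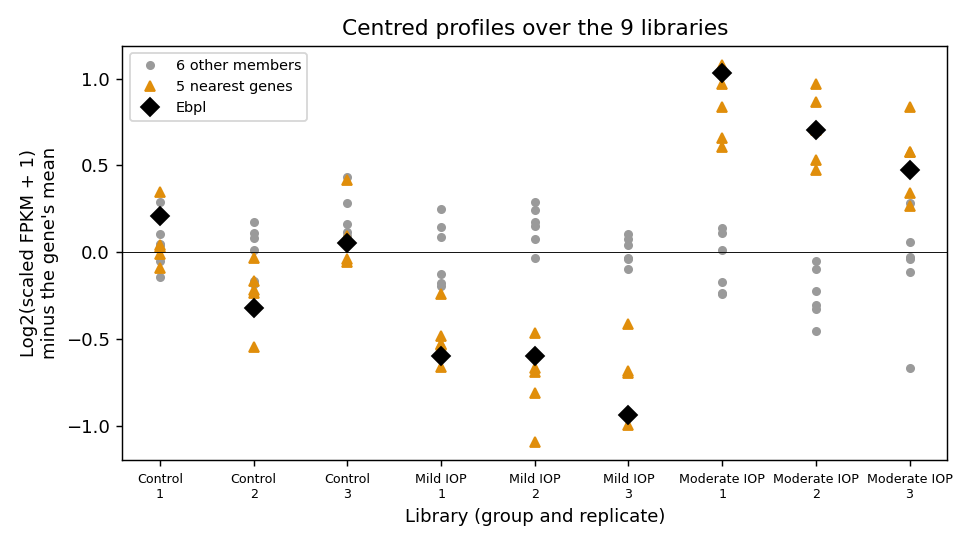
Log2(scaled FPKM + 1) minus the gene's mean over the 9 libraries (vertical axis) in each library (horizontal axis) for Ebpl (diamonds), its 5 nearest genes (triangles) and the 6 other members (circles). Ebpl and its nearest genes are below 0 in the Mild IOP libraries and above 0 in the Moderate IOP libraries, while the other members lie on both sides of 0. The nearest genes were picked by this profile, so their shared signs follow from the choice.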

How the data were processed

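RGC RNA was sequenced in 9 libraries, as 3 technical replicates of 1 pool for each of 3 groups taken from the labels. cDNA was primed with oligo-dT (SMART-seq v4) and tagged with the Nextera XT kit. The authors aligned reads to mm10 and estimated expression with Cufflinks, and the submitters' processing notes also list FastQC, Trimmomatic, TopHat2 and Cuffdiff. The deposited values are FPKM per locus with a 95% confidence interval, estimated for each library.

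Loci were added up by gene symbol (24487 loci, 23997 symbols), and 2 genes with a failed estimate were left out. Each library was divided by its median-of-ratios factor, and log2(scaled FPKM + 1) of 13043 genes with a mean of at least 0.5 was modelled in limma (version 3.58.1, R 4.3.3), with a mean for each group, all 9 libraries and a variance trend. Benjamini-Hochberg adjustment ran over all tested genes, and genes were called at an FDR below 0.1. A fold-change on this scale understates the change of low genes. Fragments behind a value were derived from its interval as (2 × FPKM / (upper bound − FPKM)) squared, and depth from genes of at least 2000 nt and 100 fragments, which covers counting error only. Tables were made in Python 3.11.15 with pandas 2.3.3. The fit was tested on simulated data.

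The members and all gene lists were chosen with earlier results of these data known. Named are every member, every other cholesterol synthesis enzyme, Insig2, Srebf1, Srebf2, Scap, every listed gene called in any comparison, the 2 genes of smallest p in Moderate IOP against Mild IOP where a list had fewer than 2 calls, and the 5 genes nearest to Ebpl. Some genes of this rule are counted in their lists but not reported here. Alternatives were tried for scaling, pseudocount, filter, groups in the fit, variance trend, failed estimates, a replicate block and each library left out, and, added after seeing the data, removal of the length trend.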

Additional observations from a re-analysis of the deposited data

How the results depend on the processing

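The libraries of a group came from 1 pool, so no setting speaks to variation between animals, and 54 to 308 derived fragments per library limit the precision of Ebpl. Of the member differences recomputed under the alternatives, 396 moved by less than 1 SD of the replicates and 3 moved further, namely Cyp51 in Moderate IOP against Control (−0.13 without scaling and −0.015 with the length trend removed) and against Mild IOP (0.18 with the length trend removed). Ebpl without any single library ranged from −0.84 to −0.58 for Mild IOP and from 0.61 to 0.89 for Moderate IOP against Control, and from 1.30 to 1.58 between them. The other sterol genes called in Moderate IOP against Mild IOP were 5, and 9 without scaling, 9 with a filter at a mean of 5 and 3 with the length trend removed, where Apoe was no longer called (FDR = 0.14, limma with Benjamini-Hochberg adjustment). Without any single library they ranged from 2 (without Mild IOP replicate 2) to 7 (without Mild IOP replicate 3), against Control from 0 (without Control replicate 1 or 2) to 3 for Moderate IOP, and stayed at 0 for Mild IOP. Over all genes, the 52 calls of Mild IOP against Control became 24 with no filter, 85 with a filter at 5, 11 with the compared groups only, 15 with no variance trend, 18 with the length trend removed and 25 with the replicate block, and 15 to 183 without any single library (the extremes without Mild IOP replicates 2 and 3). The 240 calls of Moderate IOP against Control became 134 with the compared groups only, 144 with no variance trend and 135 with the replicate block, and 61 (without Control replicate 1) to 287. The 1324 calls between the IOP groups became 839 with no variance trend and 440 with the length trend removed, and 519 (without Mild IOP replicate 2) to 1399. Without scaling, 731 of them were higher and 662 lower, in place of 917 and 407. Deviations of same-numbered libraries of different groups had a mean correlation across genes of 0.012, beside −0.0062 for different numbers. Such a mean over all genes does not show whether part of the genes deviated together. With the replicate block, the calls of other sterol genes were 0, 2 and 5 in place of 0, 3 and 5, Apoe against Control being the one lost (FDR = 0.13, limma with Benjamini-Hochberg adjustment). With no variance trend, Apoe against Control and Insig2 against Mild IOP were lost (FDR = 0.14 for both, limma with Benjamini-Hochberg adjustment). The causes of these changes were not tested.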
